A study of Mus musculus with 2 samples.

Results

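The anaphase-promoting complex, or cyclosome (APC/C), is the large ubiquitin ligase whose activity starts anaphase. The 10 genes described here encode 10 of its subunits: Anapc1, Anapc2, Anapc4, Anapc5, Anapc7, Anapc10, Cdc16, Cdc23, Cdc26 and Cdc27. They were taken by symbol, and all 10 were found among the 36227 genes of the deposited table. RNA was measured in mature MII oocytes, which wait in metaphase II for fertilisation, naturally ovulated by females of the outbred ICR strain. The young group was 1 library of 18 pooled oocytes from 6 females of 3 months, and the aged group 1 library of 18 pooled oocytes from 6 females of 12 months, with 3 oocytes from each female. No treatment or allele is given for either group, and the labels call the younger females the control. With 1 pool per age the spread between animals is unknown and no test of age could be made. Differences are described by size and by 95% exact (Clopper-Pearson) intervals that cover counting error only, with each read taken as independent.

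The APC/C joins ubiquitin to securin and B-type cyclins, whose destruction by the proteasome frees separase and lowers the activity of the kinase Cdk1. Its cullin and RING subunits carry the ubiquitin-charged E2 enzyme, its arm of tetratricopeptide repeat (TPR) proteins holds the coactivator, and a platform of large subunits joins these parts. In an MII oocyte the complex is present but held inactive by the inhibitor Emi2, and the calcium signal of fertilisation removes that inhibitor. The fully grown oocyte makes little new RNA, so transcripts at this stage are largely stored ones.

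There were 19475110 counts from young and 18597656 from aged oocytes, and a mean of at least 20 counts was reached by 10211 genes. All 10 subunit genes passed that minimum. Values are given in CPM (counts scaled to a library total of 1e6) and ratios as log2 of aged over young. The median ratio of the 10211 genes was 0.43, with quartiles of −0.28 and 1.09, so a ratio is also given relative to this median gene. All 10 oocyte markers, such as Gdf9 and Zp3, were abundant, between 124 and 97099 CPM in the young library and between 132 and 42795 CPM in the aged one. Of 14 cumulus and granulosa markers, 5 had no counts and 2 passed the minimum. Their summed level was 26.6 CPM (young) and 63.6 CPM (aged), most of it Cyp19a1 (436 and 1056 counts), with 38 and 106 counts of Nr5a2 and 27 and 1 of Cyp11a1, while Amh, Foxl2, Star, Inhba and Lhcgr had no counts, Has2 and Fshr were at 0 in the young and Inha and Ptgs2 at 0 in the aged library. Of 8 blood and stroma markers 2 had no counts, Vim had 51 and 0 counts and Ptprc 1 and 0, and the list summed to 27.6 and 44.0 CPM. Most of this sum was Pecam1, with 381 and 723 counts, beside 84 and 84 for Cd68, 19 and 7 for Col1a1 and 1 and 4 for Col3a1. The part of such cells in the ratios below was not tested. In pooled RNA, fewer transcripts per oocyte and fewer oocytes contributing RNA cannot be told apart.

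Subunit transcripts were mostly slightly more abundant in the aged pool, by about as much as the median gene. In CPM, 9 of the 10 genes were higher in the aged library and 1, Anapc7, was lower, whereas relative to the median gene 5 were above and 5 below. Only Anapc2 was at least 2-fold higher and none reached 2-fold in the other direction, so 9 of 10 lay within 2-fold. The corresponding shares of all genes were 27.9% higher, 10.6% lower and 61.6% within 2-fold. The median log2 ratio of the 10 was 0.45, which is 0.02 relative to the median gene. Summed over the 10 genes there were 14093 counts from young oocytes and 17309 from aged ones, or 724 and 931 CPM, 1.29-fold more. Counted relative to the median gene, Anapc2 was still the 1 gene at least 2-fold higher (16.0% of all genes) and Anapc7 became the 1 at least 2-fold lower (17.3% of all genes).

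**Figure D1:**
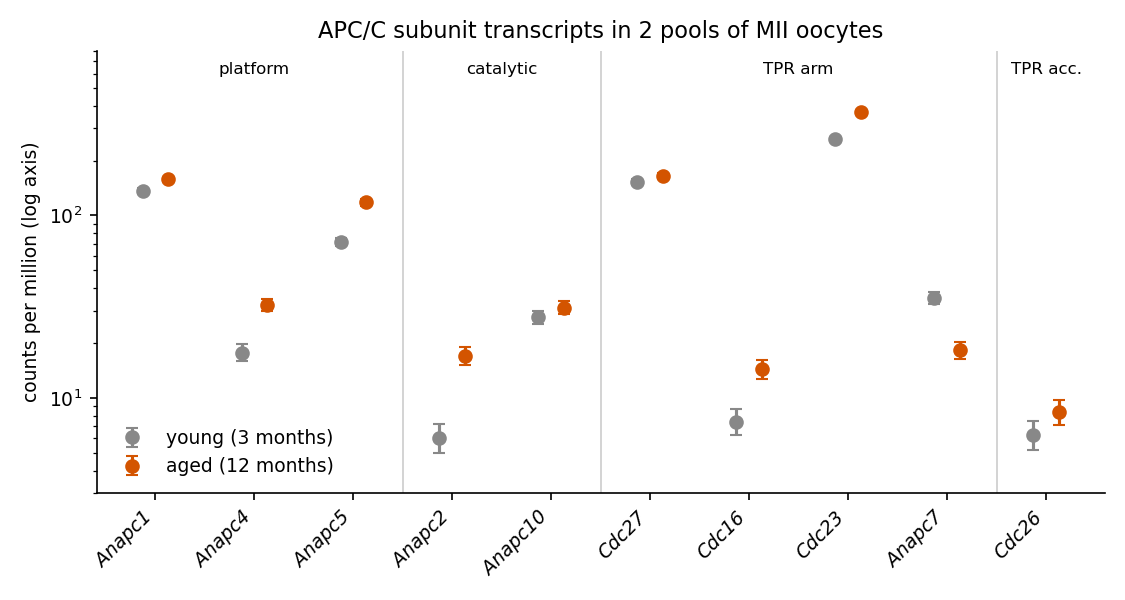
Level of each subunit transcript in the young (grey) and the aged (orange) library, in CPM on a log axis, with bars for the 95% counting interval; there is 1 library per age. In CPM the aged point is the higher one for every gene except Anapc7, although 5 genes lie below the median gene, and the widest upward step is that of Anapc2, from 6.01 to 17.0 CPM.

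The catalytic core held the member with the highest ratio. Anapc2 (ENSMUSG00000026965, chromosome 2) encodes the cullin subunit that binds the RING protein. Its counts were 117 (young) and 316 (aged), which is 6.01 and 17.0 CPM. The aged library was therefore 2.83-fold higher (interval 2.28 to 3.53), with a log2 ratio of 1.50, and 85.5% of all genes had a lower ratio. Relative to the median gene the fold was 2.11. Anapc10 (ENSMUSG00000036977, chromosome 8), whose product helps the coactivator to grip the destruction motifs of substrates, had 538 and 581 counts, or 27.6 and 31.2 CPM. Its log2 ratio of 0.18 had an interval from 0.01 to 0.35 and lay below the median gene, at −0.25 relative to it. These 2 genes therefore differed from each other: the ratio of Anapc2 was 2.50-fold that of Anapc10 (interval 1.95 to 3.22). No factor applied to a whole library can alter this value.

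The arm of TPR proteins, which stack on each other and hold the coactivator, contained both the most abundant transcripts and the member with the lowest ratio. Anapc7 (ENSMUSG00000029466, chromosome 5), a TPR subunit at the tip of the arm, had 689 counts in young oocytes against 340 in aged ones, or 35.4 and 18.3 CPM. This was 1.94-fold lower in the aged library (interval 1.70 to 2.21), a log2 ratio of −0.95, and 11.1% of all genes had a lower ratio. Relative to the median gene it was 2.60-fold lower. Cdc16 (ENSMUSG00000038416, chromosome 8) went the other way, with 144 and 267 counts, or 7.39 and 14.4 CPM, 1.94-fold higher (interval 1.58 to 2.39). Cdc26 (ENSMUSG00000066149, chromosome 4), a small protein that binds and stabilises Cdc16, had 122 and 155 counts, or 6.26 and 8.33 CPM, 1.33-fold higher (1.04 to 1.70) but −0.01 relative to the median gene. Set against each other, the ratio of Cdc16 was 1.46-fold that of its partner Cdc26 (interval 1.05 to 2.02).

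Cdc27 (ENSMUSG00000020687, chromosome 11), the TPR subunit that binds the C-terminal tail of the coactivators, had 2974 and 3072 counts, or 153 and 165 CPM. It was the gene nearest to equality, 1.08-fold higher in the aged library (1.03 to 1.14), and −0.31 relative to the median gene. Cdc23 (ENSMUSG00000024370, chromosome 18), which also takes part in coactivator binding, had the most counts of the 10, 5128 and 6851, or 263 and 368 CPM. It was 1.40-fold higher (1.35 to 1.45), close to the median gene at 0.06 relative to it. Its value is uncertain, because its exons share 1271 bases with those of Kif20a, a kinesin gene on the opposite strand, in the GENCODE mouse release 21 annotation. Kif20a had nearly as many counts in both libraries, 5525 and 7208, and a log2 ratio of 0.45 against 0.48 for Cdc23. The sources used here do not say whether the counting used strand, so reads from the shared bases, 1115 of the 4133 in the longest Cdc23 transcript, cannot be assigned with certainty.

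The platform genes were all higher in the aged library by less than 2-fold in CPM, while relative to the median gene Anapc1 was below it. Anapc1 (ENSMUSG00000014355, chromosome 2), the largest subunit and the scaffold of the platform, had 2647 and 2930 counts, or 136 and 158 CPM, 1.16-fold higher (1.10 to 1.22). Anapc4 (ENSMUSG00000029176, chromosome 5) had 344 and 601 counts, or 17.7 and 32.3 CPM, 1.83-fold higher (1.60 to 2.09). Anapc5 (ENSMUSG00000029472, chromosome 5) had 1390 and 2196 counts, or 71.4 and 118 CPM, 1.65-fold higher (1.55 to 1.77). Anapc4 and Anapc5, whose products lie beside Anapc1, thus had ratios above the median gene, at 0.45 and 0.30 relative to it, against −0.21 for Anapc1. Reads of Anapc5 may be shared, since 16 other annotated genes, of which 1 is in the deposited table, match its transcript over at least 200 bases at 92.6% to 94.4% identity. That 1 copy, Gm10482, had 44 and 54 counts.

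Near-identical copies also exist for Anapc10 and Cdc26. Gm15530 matches Anapc10 over 553 bases at 97.3% identity and had 86 and 47 counts. Of 5 genes that match Cdc26, Gm9174 was the closest at 98.8% identity over 255 bases and had 42 and 30 counts, against 122 and 155 for Cdc26 itself. For both, the copy had fewer counts in the aged library and the subunit gene more. No copy by this rule and no overlapping exon was found for Anapc1, Anapc2, Anapc4, Anapc7, Cdc16 and Cdc27. The median log2 ratio of these 6 genes was 0.54.

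**Figure D2:**
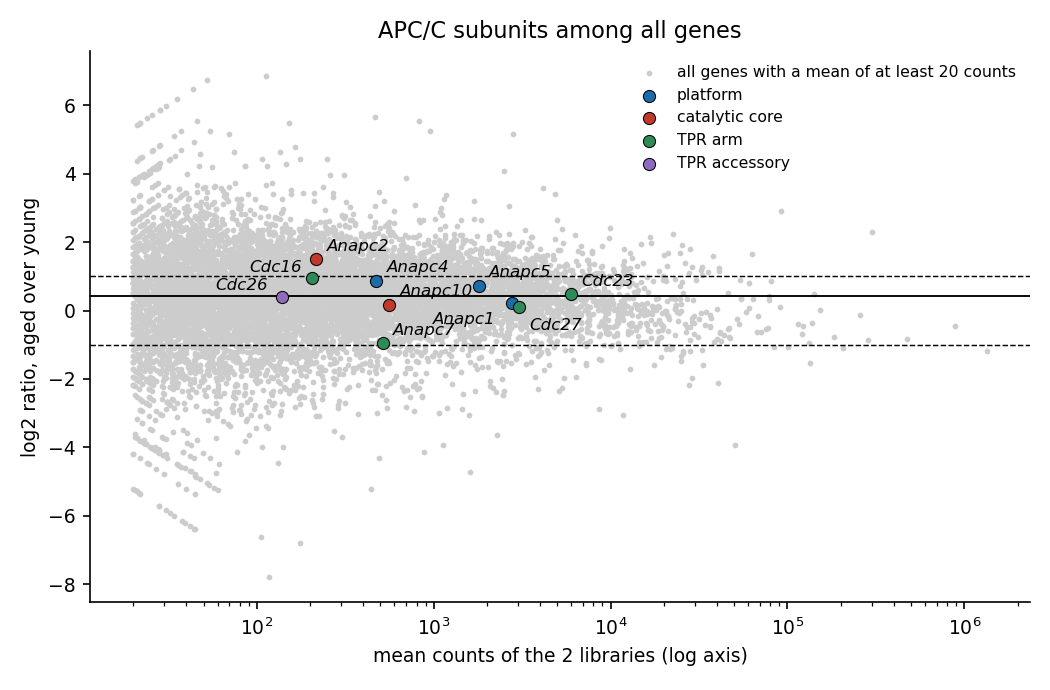
Log2 ratio of aged over young against the mean count of the 2 libraries (log axis) for the 10211 genes that passed the minimum of 20 counts (grey), with the 10 subunit genes coloured by their place in the complex. The solid line is the median gene at 0.43 and the dashed lines mark 2-fold; 8 of the 10 subunit genes lie between the quartiles of all genes, Anapc2 above and Anapc7 below.

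Anapc2 and Anapc7 had the highest and the lowest ratio of the set, so by definition they differed more than any other pair. In the young library Anapc2 had 0.170 counts for each count of Anapc7, and in the aged library 0.929. The ratio of their ratios was 5.47 (interval 4.24 to 7.08). Of the 45 pairs of subunit genes, 14 differed by at least 2-fold in this measure, and for 6 the interval also lay beyond 2-fold. The share among pairs of all genes, whose log2 ratios had quartiles of −0.28 and 1.09, was not computed. Whether 14 of 45 is many or few is therefore not known. All 14 involved Anapc2 or Anapc7, since none of the 28 pairs among the other 8 genes differed by 2-fold in these ratios. Relative to genes of like length and GC content this no longer held: Cdc16 stood at 0.40 and Cdc27 at −0.90. Like the value for Anapc2 against Anapc10, the ratios of ratios do not depend on the factor that scales each library. They do change when genes of like length and GC content are the reference.

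The libraries were made by priming at the poly(A) tail with an oligo(dT) adaptor, so the annotated 3′ end is the part of each transcript nearest to where reverse transcription began. The ends of 3 genes are shown here: the member with the highest ratio and 2 abundant subunits whose ratios lay below the median gene. Each is the last 30 bases of the longest complete coding transcript in GENCODE mouse release 21 (build GRCm38), 5′ to 3′ on the strand of the gene, with capitals for a poly(A) signal (AATAAA or ATTAAA), the motif that directs cleavage and tailing of the transcript.
Anapc2, chr2:25285886-25285915, plus strand: gtggccATTAAAaggaactcttggtccttc
Anapc1, chr2:128610104-128610133, minus strand: tgaccccAATAAActcattatattgctaaa
Cdc27, chr11:104502745-104502774, minus strand: gaaaatccaAATAAAttacttttgaaagca
In the last 100 bases, searched on the sense strand only, 9 of the 10 subunit genes held a poly(A) signal, against 83.5% of the 8946 genes above the minimum with such an end. Anapc10 was the exception. These are matches of letters in annotated ends, which need not be the ends used in oocytes, and these coordinates are of GRCm38 while the counts were made on mm9.

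The make-up of the set was similar in both pools, with the same 3 genes on top. Cdc23, Cdc27 and Anapc1 together made up 76.3% of the 10 genes' young counts and 74.3% of their aged counts. The share of Cdc23 was 36.4% (35.6 to 37.2) and became 39.6% (38.9 to 40.3) in the aged pool. That of Cdc27 was 21.1% (20.4 to 21.8) and 17.7% (17.2 to 18.3), so the most abundant pair of the TPR arm went in opposite directions within the set. Anapc7 had 4.89% (4.54 to 5.26) and 1.96% (1.76 to 2.18), and Anapc2 0.830% (0.687 to 0.994) and 1.83% (1.63 to 2.04). Grouped by place in the complex, the platform genes had 31.1% and 33.1%, Anapc2 and Anapc10 together 4.65% and 5.18%, and the 4 large TPR genes 63.4% and 60.8%. These groups had summed log2 ratios from 0.30 for the TPR genes (0.26 to 0.34) to 0.52 for Anapc2 and Anapc10 (0.37 to 0.67). Relative to the median gene the sums lay from −0.12 to 0.09.

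Levels between genes were compared in CPM per kilobase of the longest coding transcript. Cdc23 was highest in both libraries, with 63.7 and 89.1 CPM per kilobase. Cdc27 with 28.1 and 30.4 and Anapc5 with 25.9 and 42.8 followed, in the reverse order in the aged library. Anapc1 was the fourth in both, at 15.2 and 17.6. At the low end stood Anapc2 with 2.00 and Cdc16 with 3.21 in the young library, and Anapc7 with 5.08 and Anapc2 with 5.66 in the aged one. Highest and lowest were 31.9-fold apart among young and 17.5-fold apart among aged values. Below Cdc23 the order depends on the transcript chosen: with the median length of each gene's coding transcripts, Anapc4 went from 4.58 to 34.5 CPM per kilobase in the young library and from the eighth to the third rank (from the sixth to the second in the aged library), since most of its annotated transcripts are short. Libraries primed at the poly(A) tail need not cover long transcripts evenly, so a level per kilobase is a coarse measure here.

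Base composition moved with the ratios of all genes. In the decile with the lowest GC content, up to 41.8%, the median log2 ratio was 1.04, and in the decile with the highest, from 57.7%, it was −0.28. Among the subunit genes, the GC content of the transcript ranged from 39.3% for Anapc10 to 55.2% for Anapc2. Anapc2 thus had the highest ratio with the highest GC content, and Anapc10 and Cdc27, at 39.3% and 39.9%, were among the lowest ratios. Set against genes of like length and GC content (the median of the same bin), Anapc2 stood at 1.23 and Anapc7 at −1.51. Cdc27 went to −0.90 and Anapc10 to −0.79, further below their bins than below the median gene, while Cdc16 was 0.40 and Anapc4 0.15 above theirs. The median of the 10 was 0.01, with 5 above and 5 below.

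**Figure D3:**
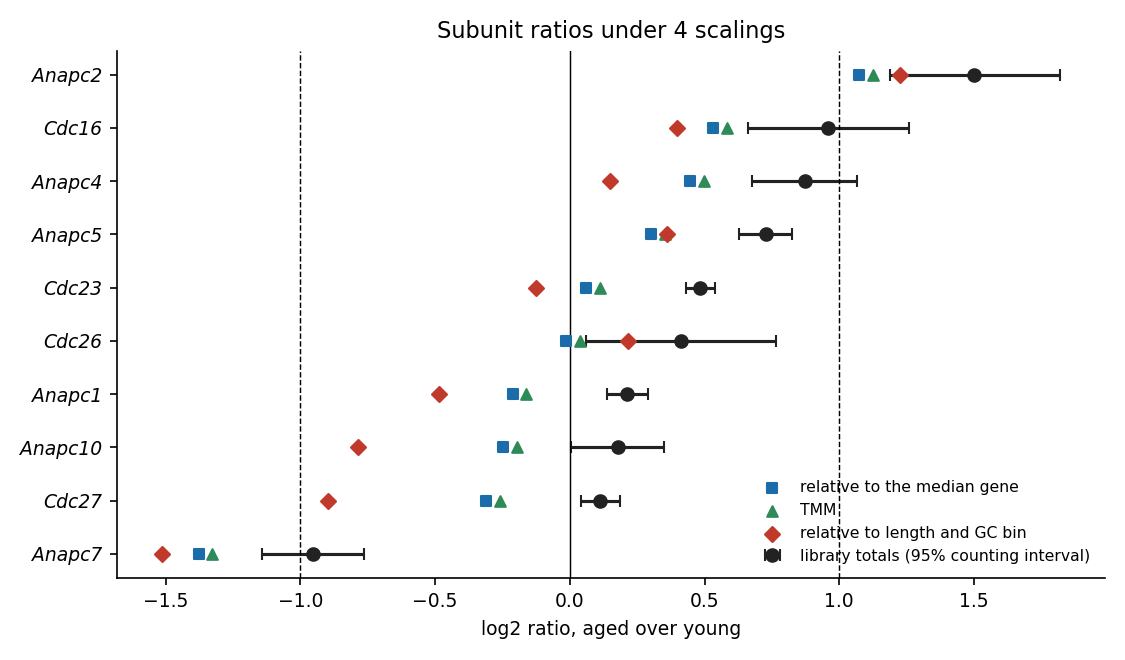
Log2 ratio of aged over young for each subunit gene, with library totals (black, bars for the 95% counting interval), relative to the median gene (blue), with TMM scaling (green) and relative to genes of like length and GC content (red); dashed lines mark 2-fold. Anapc2 is beyond 2-fold under all 4, from 1.07 to 1.50, and Anapc7 under 3 of them, while Cdc27, Anapc10 and Anapc1 lie above 0 only with library totals.

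The authors' deposited table gives the same ratios with the sign turned, as log2 of young over aged: −1.50 for Anapc2 and 0.95 for Anapc7. At p below 0.001 the authors' deposited table marks 6 of the 10 subunit genes as higher in the aged library, where 34.4% of 15387 genes are so marked, and 1, Anapc7, as lower, where 15.6% are. Those p-values set the reads of 1 library against those of the other and carry no information on animals of either age. The 3 genes not marked in the authors' deposited table were Cdc27, Cdc26 and Anapc10.

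The median ratio of the 4 smaller subunits was below that of the 10 genes above. The RING subunit gene Anapc11, which with Anapc2 forms the catalytic module, had 564 and 430 counts and was 1.25-fold lower in the aged library (1.10 to 1.42). Anapc13 (772 and 569 counts) was 1.30-fold lower, Anapc16 (223 and 187 counts) 1.14-fold lower and Anapc15 (505 and 544 counts) 1.13-fold higher, though below the median gene. None reached 2-fold, where 61.6% of all genes lay within it, and their median log2 ratio was −0.26, or −0.68 relative to the median gene. Against genes of like length and GC content their median was −0.48. The catalytic partners thus differed in direction, the ratio of Anapc2 being 3.54-fold that of Anapc11 (2.75 to 4.57). Anapc15 is uncertain, since it shares 1981 exon bases with Tomt on the opposite strand, which had 405 counts in each library, and Anapc13 shares 239 with Cep63 (19 and 47 counts).

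Both coactivators, which bring substrates to the complex, were lower in the aged library. Cdc20, the coactivator of anaphase, had 5009 and 3815 counts, or 257 and 205 CPM, 1.25-fold lower (1.20 to 1.31). Fzr1, which encodes Cdh1, the coactivator known for holding oocytes in prophase, had 1826 and 696 counts, or 93.8 and 37.4 CPM, 2.51-fold lower (2.29 to 2.74). Relative to the median gene Cdc20 was 1.68-fold and Fzr1 3.37-fold lower. A ratio lower than that of Cdc20 was found for 23.5% of all genes, and lower than that of Fzr1 for 7.39%. Per count of Fzr1, the young library had 2.74 of Cdc20 and the aged one 5.48, 2.00-fold more (1.81 to 2.20). Gm7856, which matches Cdc20 at 93.7% identity over 1512 bases, had 357 and 151 counts. Of the E2 enzymes, Ube2c, which starts the ubiquitin chains, was 1.34-fold lower with 1379 and 986 counts. Ube2s, which extends them, had 81 and 56 counts, with an interval of the log2 ratio from −0.98 to 0.04, and Ube2d1, of a family that can also serve the complex, was 1.50-fold higher with 97 and 139 counts. None of the 3 enzymes was 2-fold apart, where 61.6% of all genes lay within 2-fold. Set against genes of like length and GC content, Cdc20 stood at −0.23 and Fzr1 at −1.18. On that scale Ube2c stood at −0.38, Ube2s at −0.004 and Ube2d1 at −0.22.

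Inhibitors of the complex lay in both directions, 2 of 6 being at least 2-fold higher and 1 lower (27.9% and 10.6% of all genes), or 1 and 1 relative to the median gene (16.0% and 17.3%), where Bub3 was 1.77-fold higher. Their median was 0.61, or 0.18 above the median gene. Fbxo43, which encodes Emi2, the inhibitor of the MII arrest, had 4595 and 3064 counts and was 1.43-fold lower in the aged library (1.37 to 1.50). Its relative Fbxo5, which encodes Emi1, was 3.05-fold higher with 99 and 288 counts, although a stretch of 1759 bases of Glcci1 (1100 and 1935 counts) matches its transcript at 91.2% identity. Among genes of the mitotic checkpoint complex, which traps Cdc20, Bub1b (BubR1) was 2.18-fold lower with 28659 and 12526 counts, Bub3 2.37-fold higher with 1164 and 2638 counts and Mad2l1 1.72-fold higher with 2079 and 3414 counts. Mad2l2 was 1.35-fold higher with 1829 and 2362 counts, at the median gene. Relative to genes of like length and GC content, log2 ratios were 0.73 for Fbxo5, 0.31 for Bub3, −0.27 for Mad2l1 and 0.90 for Mad2l2. On that scale Fbxo43 stood at −1.57 and Bub1b at −1.54, and no inhibitor was 2-fold higher. Of the 3 deubiquitinase genes that oppose the complex, only Otud7b passed the minimum, 2.30-fold higher with 77 and 169 counts. Usp37 had 1 and 3 counts and Usp44 0 and 9, where 0 counts allow up to 3 counts, or 0.154 CPM, and 9 counts were 0.484 CPM.

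Of 22 substrate genes 21 passed the minimum. Beyond 2-fold there were 5 higher and 1 lower (27.9% and 10.6% of all genes), or 2 higher and 3 lower relative to the median gene (16.0% and 17.3%). The median, 0.38, was close to that of the subunits and −0.05 relative to the median gene. Pttg1, which encodes securin, was 4.94-fold higher with 105743 and 498571 counts. Ccnb1, cyclin B1, was 1.89-fold higher with 16586 and 29898 counts. The other genes furthest above equality were Tk1, thymidine kinase (3.04-fold, 71 and 206 counts), the replication licensing gene Cdc6 (2.33-fold, 54 and 120 counts) and Ccna2, cyclin A2 (2.08-fold, 5496 and 10899 counts). Furthest below it were Anln, the cytokinesis protein anillin (2.41-fold lower, 889 and 352 counts), Ckap2, a microtubule-associated protein (1.83-fold, 251 and 131 counts), and Cdca3 (1.56-fold, 7171 and 4402 counts). Against genes of like length and GC content, Pttg1 stood at 1.43, Ccnb1 at 0.01, Tk1 at 1.83, Cdc6 at 0.56 and Ccna2 at 0.22. On that scale Anln stood at −1.93, Ckap2 at −1.64 and Cdca3 at −1.11. Ccna2 shares 510 exon bases with Exosc9 on the opposite strand (429 and 758 counts), and Ccnb1 has 5 copies, of which Ccnb1-ps had 84 and 190 counts and Gm12856 34 and 73.

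**Figure D4:**
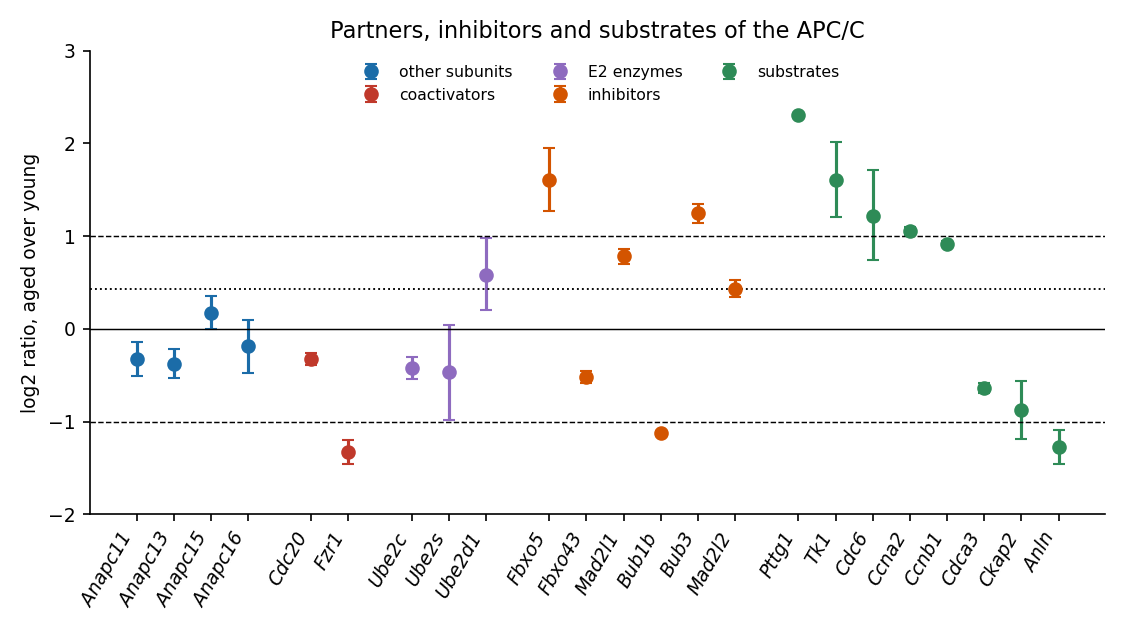
Log2 ratio of aged over young, with the 95% counting interval, for the other subunits, coactivators, E2 enzymes, inhibitors and named substrates of the APC/C; the dotted line is the median gene at 0.43 and dashed lines mark 2-fold. Both coactivators and 3 of the 4 other subunits lie below 0, and Pttg1, Fbxo5 and Tk1 lie highest.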

How the data were processed

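RNA of 2 libraries, each a pool of 18 MII oocytes, was amplified by PCR without molecular identifiers and read by SOLiD sequencing, per the labels' protocols. The build was mm9, per the submitters' processing notes. No source used here names the aligner, the counting program or the annotation. The authors deposited 1 table of 36227 genes with whole-number counts for 18364, log2 fold changes and p-values. From the counts were computed CPM, ratios scaled to library totals, and exact binomial or Poisson intervals. These intervals cover counting error only and treat each read as independent. Since PCR copies are not independent molecules, the intervals can be too narrow even for counting error. They were run on simulated Poisson counts, which checks the code but not how well the intervals suit amplified reads. A count of 0 was set to 3 for ratios. Symbols matched 93.7% of counted genes by Ensembl ID. Lengths, GC content, 3′ ends and exon overlaps came from GENCODE mouse release 21, found for 97.0% of genes above the minimum. Near copies came from blastn 2.17.0 (at least 90% identity over 200 bases). TMM factors came from edgeR 4.0.16 and size factors from DESeq2 1.42.0. Python 3.11.15 was used. The members and lists were chosen with earlier results of these data known. Named are all members, all genes of the smaller lists, Ccnb1, Pttg1 and the 3 other substrates furthest from equality in each direction. Genes named as overlapping or as copies were chosen by annotation.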

Additional observations from a re-analysis of the deposited data

How the results depend on the processing

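Anapc2 was at least 2-fold higher under every scaling, minimum and count addition tried, and with library totals its counting interval lay beyond 2-fold too. The number of subunit genes at least 2-fold lower was 0 with library totals and 1, Anapc7, with TMM, with median-of-ratios size factors, with totals without the 100 most abundant genes, when centred on the median gene, and with length and GC bin medians taken off. The median of the 10 was 0.074, 0.092, 0.16, 0.023 and 0.013 under these alternatives, in that order, against 0.45. The median of all genes, 0.43 with library totals, was 0.05 with TMM, 0.07 with size factors and 0.14 without the 100 most abundant genes, and it is 0 by construction in the other 2. Without the 4 genes with copies or an overlapping gene, an alternative chosen after seeing the data, the median was 0.54. Among all genes with library totals, 2844 lay 2-fold or more above equality and 1081 below. The counts were 1757 and 1668 with TMM, 1802 and 1630 with median-of-ratios size factors, 1633 and 1766 when centred, and 1345 and 1476 with bin medians taken off. They were 5483 and 3370 with no minimum, 1727 and 496 with a mean of at least 100 counts, and 1841 and 648 with the interval beyond 2-fold. Without a minimum or with a higher one the number of genes included also changes, so those counts are not shares of the 10211 genes. No paired analysis was possible because each age has 1 library. With 1 library per age, no value has a replicate check, and the members with few counts, such as Cdc26 with 122 and 155, carry the widest intervals.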
